A study of Mus musculus with 14 samples.

Results

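The 8 genes described here encode the MHC class II molecule of the mouse and the proteins that load it. They are the chain genes H2-Aa, H2-Ab1 and H2-Eb1, the invariant chain gene Cd74, the peptide editor genes H2-DMa, H2-DMb1 and H2-DMb2, and the transactivator gene Ciita. They were chosen by symbol from the 21152 genes of the deposited table, after the mouse Ensembl IDs had been matched to symbols, and all 8 were present. In the table they are ENSMUSG00000036594.16 (H2-Aa), ENSMUSG00000073421.7 (H2-Ab1), ENSMUSG00000060586.12 (H2-Eb1), ENSMUSG00000024610.17 (Cd74), ENSMUSG00000037649.11 (H2-DMa), ENSMUSG00000079547.5 (H2-DMb1), ENSMUSG00000037548.16 (H2-DMb2) and ENSMUSG00000022504.11 (Ciita). RNA was sequenced from LLC1 tumours, which derive from a mouse Lewis lung carcinoma line and were grown in mice. The 4 groups were MYCi975 (50 mg/kg, 4 libraries), an inhibitor of the transcription factor MYC; TMP195 (50 mg/kg, 3 libraries), an inhibitor of class IIa histone deacetylases; the combination of both compounds (3 libraries); and the DMSO vehicle (4 libraries). All mice bore LLC1 tumours and were treated for 16 days. The question posed by the series is which transcripts the drugs alter in vivo. The sources used here do not give the doses within the combination or the strain, sex and age of the hosts. The series text calls the material a bulk suspension of the tumour, while the extraction protocol speaks of an enriched tumour fraction. Nothing in the labels ties each library to its own animal. The p-values therefore reflect library-to-library spread, part of which may be technical.

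MHC class II molecules are pairs of an alpha and a beta chain that display peptides from endocytosed proteins to CD4+ T cells. In the endoplasmic reticulum the pair binds the invariant chain CD74, which blocks the peptide groove and routes the complex to endolysosomes, where cathepsins trim CD74 and the H2-DM heterodimer exchanges its last fragment for a peptide. Dendritic cells, B cells and macrophages carry class II constitutively or after activation, and many other cells, some tumour cells among them, do so after exposure to interferon gamma. Most of this control runs through Ciita, a co-activator that does not bind DNA itself but docks on factors bound to the X and Y boxes of class II promoters.

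Promoter sequences were read because the chain genes share this promoter logic and varied together across the libraries. RefSeq promoters on GRCm38.p6, from 250 bases before to 50 bases after the start, were found for 5 of the 8 genes. H2-Ab1, Cd74 and Ciita had none, so their promoters were not read. The bases from 120 to 31 before the start are printed 5′ to 3′ for H2-Eb1 (chr17:34305747-34305836, plus strand) and H2-Aa (chr17:34287854-34287943, minus strand). Capitals mark matches, on either strand, to the X box core CTAGNAAC, the X2 core TGACG and the Y box CCAAT, whose reverse complement is ATTGG.
H2-Eb1: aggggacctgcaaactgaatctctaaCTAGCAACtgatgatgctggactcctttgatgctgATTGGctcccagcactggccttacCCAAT
H2-Aa: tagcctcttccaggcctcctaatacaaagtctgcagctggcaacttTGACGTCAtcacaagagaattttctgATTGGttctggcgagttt
In H2-Eb1 the X core lay 94 bases and ATTGG 59 bases before the start, and a further CCAAT ended the window. In H2-Aa, 2 overlapping X2 matches on opposite strands stood upstream of ATTGG, and CTAGNAAC did not occur in this window or elsewhere in its promoter. The H2-DMb1 promoter held an X core at 97 and ATTGG at 61 bases before the start, close to the H2-Eb1 layout, while the H2-DMb2 promoter held only ATTGG, at 90 bases. Of 2 promoters listed for H2-DMa, 1 held only ATTGG, at 198 bases, and the other held none of the motifs. Over all 32851 promoters of the same length, 3.62% held CTAGNAAC, 20.8% held TGACG and 37.4% held CCAAT. An X core starting 30 to 40 bases upstream of ATTGG, a spacing chosen after the positions in these genes had been seen, occurred in 8 promoters (0.0244%), among them those of H2-Eb1, H2-DMb1 and H2-Ob. These are matches of letters, not measured binding sites.

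Expression is given on the authors' deposited log2-like scale, made by variance stabilisation, on which 1 unit near the top of the range is a factor of 2 and differences close to the floor are compressed. The floor of 4.047 was shared by all 14 libraries, and 880 to 2954 genes per library lay on it. Depth is unknown, and levels are not compared between genes because the scale is not per length. Leukocyte RNA was present in every library: Ptprc, the pan-leukocyte antigen CD45, ranged from 9.65 to 12.07. None of the 8 members was at the floor in any library. A gene was tested where its mean exceeded the floor by more than 1 unit, which held for 13711 genes and 7 of the 8 members. H2-DMb2, with a mean of 4.97, was not among them.

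No member passed the test in any comparison. With limma, 0 of the 7 tested members and 0 of 13711 genes (0%) had an adjusted p under 0.05 for MYCi975, TMP195 or the combination against vehicle, for the combination against either single agent, or for the interaction, which is the combination minus TMP195 difference less the MYCi975 minus vehicle difference. Before adjustment, a p under 0.05 was reached against vehicle by 457 genes for MYCi975, 381 for TMP195 and 470 for the combination. The same counts were 1120 for the combination against MYCi975, 603 for the combination against TMP195 and 656 for the interaction. The order of the group means was nonetheless the same for H2-Aa, H2-Ab1, H2-Eb1 and Cd74, with TMP195 at the top, then vehicle, then MYCi975, then the combination. Neighbours in that order differed by less than the larger of their SDs in all 4 genes; the widest such gap was -0.85, for H2-Ab1 between the combination and MYCi975, with SDs of 0.90 and 0.81. In these bulk samples, fewer cells that carry class II and less class II RNA per cell cannot be told apart.

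**Figure D1:**
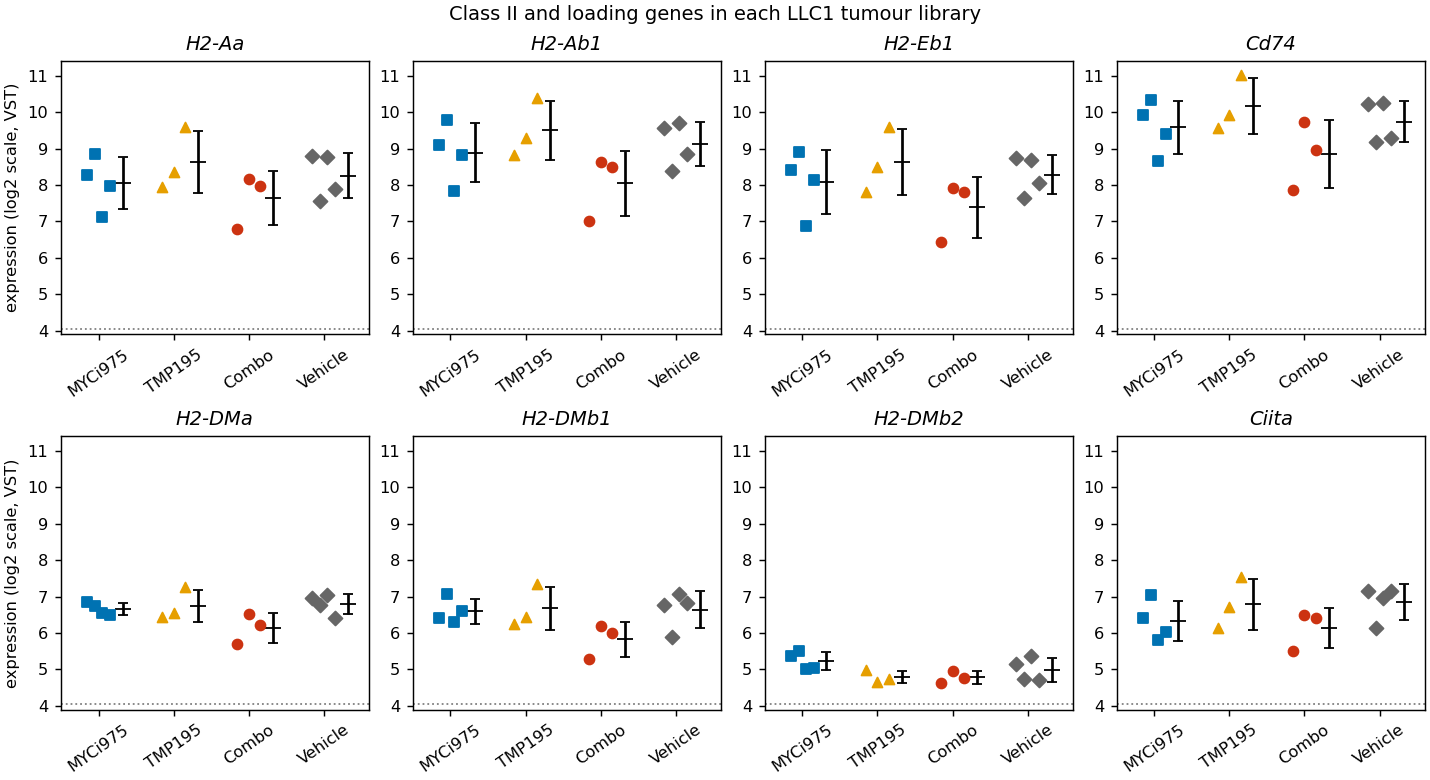
Expression of the 8 members on the log2 scale (y axis) by group, MYCi975, TMP195, combination (Combo) and vehicle (x axis); each point is 1 library, bars are group means with SD, and the dotted line is the floor of 4.047. Every treated group overlaps vehicle in each gene, and 1 combination library is the lowest for all 8 genes, for example at 7.01 for H2-Ab1.

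Of the chain genes, H2-Ab1 encodes the beta chain of I-A. It stood at 9.09, 9.79, 7.84 and 8.82 in the MYCi975 libraries, at 8.81, 9.28 and 10.40 under TMP195, at 7.01, 8.63 and 8.49 under the combination, and at 9.56, 8.39, 9.69 and 8.86 under vehicle. The combination held the lowest library, 2 of its libraries lay within the vehicle range, and the third lay more than 1 unit below it. Group means were 8.89 ± 0.81 for MYCi975 (SD, n = 4), 9.50 ± 0.82 for TMP195 (n = 3), 8.04 ± 0.90 for the combination (n = 3) and 9.13 ± 0.61 for vehicle (n = 4). The combination minus vehicle difference was -1.08 (SE 0.49, 95% interval -2.12 to -0.05; limma adjusted p = 0.992).

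H2-Aa encodes the alpha chain that pairs with it. H2-Aa read 8.28, 8.85, 7.12 and 7.97 with MYCi975, 7.94, 8.37 and 9.58 with TMP195, 6.78, 8.16 and 7.98 with the combination, and 8.80, 7.57, 8.77 and 7.88 with vehicle. Its combination minus vehicle difference, -0.62 (SE 0.46, 95% interval -1.60 to 0.36; limma adjusted p = 0.992), stood beside -1.08 for H2-Ab1. H2-Eb1, the beta chain of I-E, read 8.41, 8.91, 6.87 and 8.14 with MYCi975, 7.81, 8.50 and 9.59 with TMP195, 6.43, 7.92 and 7.81 with the combination, and 8.75, 7.63, 8.68 and 8.06 with vehicle. In both genes TMP195 replicate 3 was the highest library and combination replicate 1 the lowest, and each treated group overlapped vehicle. The H2-Eb1 difference between combination and vehicle was -0.89 (SE 0.49, 95% interval -1.94 to 0.16; limma adjusted p = 0.992).

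Cd74, the invariant chain, followed the chain genes. The MYCi975 libraries gave 9.92, 10.34, 8.66 and 9.40, the TMP195 libraries 9.56, 9.91 and 11.03, the combination libraries 7.86, 9.74 and 8.95, and the vehicle libraries 10.22, 9.19, 10.24 and 9.30. Combination replicates 1 and 3 lay below every vehicle library and replicate 2 lay inside the vehicle range. The mean was 8.85 ± 0.94 in the combination and 9.74 ± 0.57 in vehicle (SD, n = 3 and 4), a difference of -0.89 (SE 0.47, 95% interval -1.88 to 0.11; limma adjusted p = 0.992).

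The peptide editor genes spanned 0.88 to 2.05 log2 units over the 14 libraries, against 2.81 to 3.39 for the chains and Cd74. H2-DMa, the alpha chain of the editor, was at 6.85, 6.73, 6.56 and 6.49 under MYCi975, at 6.45, 6.54 and 7.25 under TMP195, at 5.71, 6.52 and 6.21 under the combination, and at 6.95, 6.76, 7.03 and 6.41 under vehicle. Combination replicates 1 and 3 were below all vehicle libraries. The difference of combination and vehicle was -0.64 (SE 0.23, 95% interval -1.13 to -0.16), with the smallest p of any member in that comparison before adjustment (limma adjusted p = 0.992). H2-DMb1, a beta chain of the editor, was at 6.42, 7.08, 6.29 and 6.59 under MYCi975, at 6.24, 6.45 and 7.34 under TMP195, at 5.29, 6.20 and 5.99 under the combination, and at 6.76, 5.90, 7.08 and 6.81 under vehicle. All 3 combination libraries lay below every MYCi975 and every TMP195 library, while vehicle replicate 2 lay among them. The H2-DMb1 difference was -0.81 against vehicle (SE 0.32, 95% interval -1.49 to -0.14; limma adjusted p = 0.992) and -0.77 against MYCi975 (limma adjusted p = 0.611).

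H2-DMb2, the second beta chain gene of the editor, was close to the floor. It was at 5.37, 5.50, 5.02 and 5.03 under MYCi975, at 4.98, 4.66 and 4.75 under TMP195, at 4.62, 4.96 and 4.76 under the combination, and at 5.14, 4.73, 5.36 and 4.70 under vehicle. Its highest library was MYCi975 replicate 2. The 4 MYCi975 libraries, the lowest at 5.02, lay narrowly above the combination (up to 4.96) and TMP195 (up to 4.98). Of all tested genes, 3.97% had the combination wholly below MYCi975. No such share was computed for TMP195 and MYCi975. Fitted with no filter on low values, H2-DMb2 differed by 0.25 between MYCi975 and vehicle and by -0.45 between the combination and MYCi975 (limma adjusted p = 0.672). The copies are hard to count apart: 1 transcript of each, set side by side, was identical at 94.7% of 1246 aligned bases, and 31.4% of the 31-base windows of H2-DMb1 also occurred in H2-DMb2. With the values taken back from log2, added and fitted as 1 feature, the pair differed by -0.64 between the combination and vehicle (limma adjusted p = 0.992). The floor enters this sum with each gene, so the sum is not linear in counts and its differences are compressed too.

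Ciita, the transactivator, read 6.42, 7.05, 5.82 and 6.03 with MYCi975, 6.13, 6.70 and 7.53 with TMP195, 5.50, 6.50 and 6.40 with the combination, and 7.16, 6.14, 6.95 and 7.15 with vehicle. The group means were 6.33 ± 0.54 for MYCi975, 6.79 ± 0.70 for TMP195, 6.13 ± 0.55 for the combination and 6.85 ± 0.48 for vehicle (SD). Unlike the chain genes, Ciita had its highest mean in vehicle, where 3 of the 4 libraries lay between 6.95 and 7.16. Its difference from vehicle was -0.72 in the combination (SE 0.37, 95% interval -1.50 to 0.06; limma adjusted p = 0.992), -0.52 in MYCi975 (adjusted p = 0.999) and -0.06 in TMP195.

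Read as a list, none of the members was called in the combination. All 7 tested members were lower in the combination than in vehicle, where 50.3% of all tested genes were lower, and their median difference was -0.81 against a median of -0.0022 over all genes. 3 of the 7 (H2-DMa, H2-DMb1 and H2-Ab1) had an unadjusted p under 0.05 and were lower, as did 1.35% of all genes, and 0 of 7 had combination values wholly below vehicle, which held for 3.27% of all genes. Against MYCi975 all 7 were again lower (49.8% of all genes), the median was -0.69, and there were 2 of 7 lower at that p (5.03% of all genes) and 1 of 7 (H2-DMb1) not overlapping (3.97%). Against TMP195 all 7 were lower (48.9%), the median was -0.99, and there were 5 of 7 lower at that p (2.74%) and 2 of 7 (H2-Ab1 and H2-DMb1) not overlapping (6.36%). The 3 comparisons share the combination libraries, and the members vary together, so these counts are not independent observations.

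The median differences of the single agents from vehicle were smaller in size. Under MYCi975 all 7 tested members were lower than in vehicle (48.3% of all genes), with a median of -0.20 and a range from -0.52 for Ciita to -0.04 for H2-DMb1. Under TMP195 the median was 0.36 and 5 of 7 were higher (50.8% of all genes). Cd74 (0.43), H2-Aa (0.37), H2-Ab1 (0.37), H2-Eb1 (0.36) and H2-DMb1 (0.04) were higher, and H2-DMa (-0.04) and Ciita (-0.06) were lower. The interaction was negative for all 7 (49.8% of all genes), from -1.22 for H2-Ab1 (-0.70 without combination replicate 1) to -0.13 for Ciita, with 0 of 7 called by limma and 0 of 7 at an unadjusted p under 0.05 (3.05% of all genes were lower at that p).

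**Figure D2:**
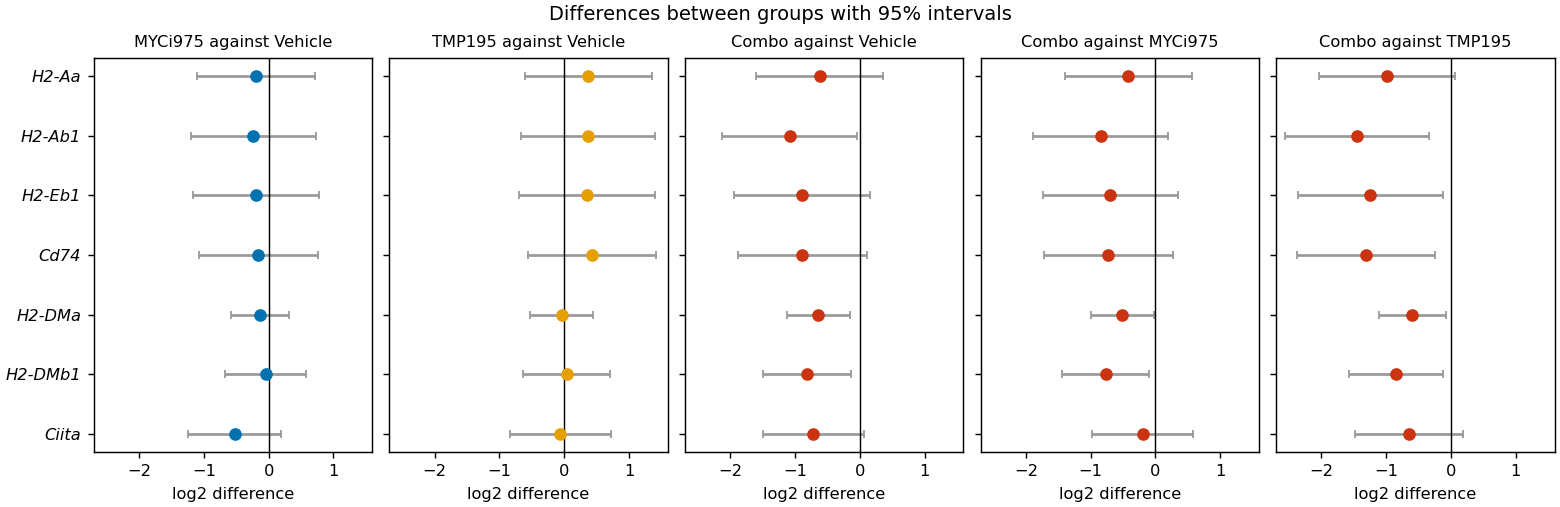
Differences of each tested member between groups (x axis, log2 units, with 95% intervals from limma), 1 row per gene and 1 panel per comparison. For the combination against vehicle all 7 points lie below 0, from -1.08 for H2-Ab1 to -0.62 for H2-Aa, and 3 of the intervals exclude 0 before adjustment.

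1 library in each direction carried much of this. Combination replicate 1 was the lowest library for 8 of 8 members and TMP195 replicate 3 the highest for 7 of 8. Averaged over the members, each centred on its mean, combination replicate 1 stood at -1.27 and TMP195 replicate 3 at 1.02, with MYCi975 replicate 3 at -0.64 and MYCi975 replicate 2 at 0.62 next to them. Without combination replicate 1 the mean member difference between combination and vehicle was -0.42, against -0.81 with all libraries, and all 7 genes stayed below 0, from -0.57 for H2-Ab1 to -0.19 for H2-Aa. Without TMP195 replicate 3 the mean difference between TMP195 and vehicle was -0.19, against 0.21 with all libraries.

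**Figure D3:**
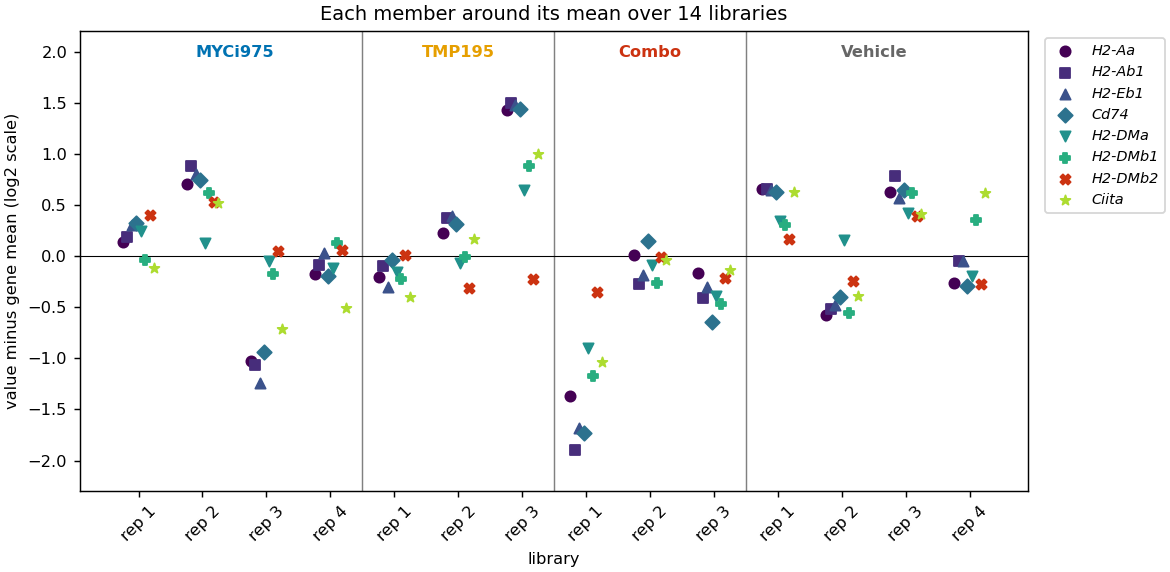
Each member's value minus its own mean over the 14 libraries (y axis, log2 units) by library and group (x axis); each symbol is 1 gene. The symbols cluster within most libraries, from a mean of -1.27 in combination replicate 1 to 1.02 in TMP195 replicate 3, while H2-DMb2 sits apart in several.

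The members moved together from library to library. Over the 14 libraries, Pearson's r was 0.97 to 0.99 for the 6 pairs among H2-Aa, H2-Ab1, H2-Eb1 and Cd74, and 0.96 to 0.99 after each value was centred on its group mean. It remained 0.92 to 0.98 without combination replicate 1 and TMP195 replicate 3. Ciita correlated with the other members except H2-DMb2 at 0.70 to 0.89, which became 0.36 to 0.79 without those 2 libraries. The 7 pairs that include H2-DMb2 gave 0.22 to 0.48, and 0.42 to 0.67 on group-centred values and 0.23 to 0.65 without the 2 libraries. These correlations are descriptions, since the genes of a library share its depth and cell content.

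H2-Ab1 was set against 12 regulators and cell markers over the 14 libraries, with two-sided permutation p-values from 100000 resamples adjusted over the 12. The null is no relation, while genes of a library share its depth and cell content, so a small p does not single out a gene. By r with the mean of the chain genes and Cd74, Ctss ranked at position 38 among 13704 genes and Irf1 at 116. Ptprc ranked at 153, Itgax at 657 and C1qa at 810, so many other genes followed class II as closely. Ctss, the cathepsin that trims the invariant chain, gave r = 0.92 (raw permutation p = 1e-05, the smallest the resamples can give, adjusted p = 6e-05; rho = 0.93), and Ciita gave r = 0.89 (adjusted p = 6e-05; rho = 0.85). Irf1, an interferon-induced activator of Ciita, gave 0.87, and Ifng, interferon gamma itself, gave 0.83, both with an adjusted permutation p under 0.05 (9.6e-05 and 6e-05).

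Among cell markers, Ptprc gave r = 0.86 (raw permutation p = 0.00017, adjusted p = 0.000291; rho = 0.96). The macrophage receptor gene Csf1r and the T cell gene Cd3e each gave 0.85 (adjusted permutation p = 0.00033 and 0.00022). Itgax, an integrin of dendritic cells and some macrophages, gave 0.69 (adjusted permutation p = 0.00837), and the complement gene C1qa gave 0.67 (adjusted p = 0.01). After removal of the pair of libraries lying farthest out on the x axis, r was 0.79 to 0.93 for Ctss, Ciita, Irf1, Ifng, Ptprc, Csf1r and Cd3e, but 0.47 for Itgax and 0.48 for C1qa, so both of these relations rest in part on those libraries. The neutrophil gene S100a8 (r = 0.36, adjusted p = 0.231) and the B cell gene Cd79a (r = -0.22, adjusted p = 0.453) did not pass the permutation test. Cd79a was at the floor in 4 of the 14 libraries and never above 4.96. Its values can therefore not show whether class II varied with B cells. After centring on the group means r remained 0.80 to 0.91 for Ctss, Ciita, Irf1, Ifng, Ptprc, Csf1r and Cd3e, so these relations did not rest on the group means alone. Each is 1 r pooled over the 14 centred libraries, which does not show the relation in every group.

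**Figure D4:**
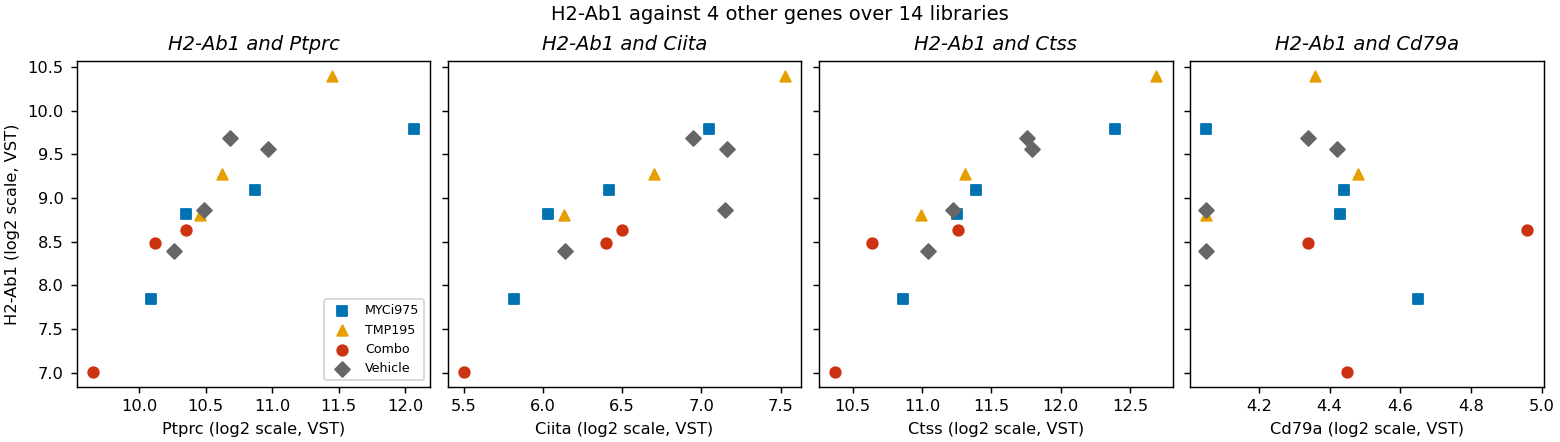
H2-Ab1 (y axis, log2 scale) against Ptprc, Ciita, Ctss and Cd79a (x axes, log2 scale); each point is 1 of 14 libraries, with colour and shape for the group. Points follow Ptprc (r = 0.86), Ciita (r = 0.89) and Ctss (r = 0.92) but not Cd79a (r = -0.22), and the groups mix along the first 3 relations. Cd79a lies on or near the floor in all libraries, at 4.05 to 4.96, so its panel can show little.

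Since Ptprc varied with the class II genes, its values are given beside their differences. Ptprc averaged 10.85 ± 0.88 under MYCi975, 10.84 ± 0.53 under TMP195, 10.04 ± 0.36 under the combination and 10.60 ± 0.30 under vehicle (SD), a combination minus vehicle difference of -0.56 (95% interval -1.35 to 0.23). With Ptprc as a covariate the combination minus vehicle difference was -0.44 for H2-Ab1, -0.47 for H2-DMb1, -0.45 for H2-DMa, -0.28 for Cd74, -0.26 for H2-Eb1, -0.25 for Ciita and -0.01 for H2-Aa. The mean over the members was then -0.31, against -0.81 without the covariate. Against MYCi975 the mean was 0.12 with the covariate, against -0.59 without it. In the same fit Ciita differed by -0.73 between MYCi975 and vehicle (95% interval -1.15 to -0.31), a value singled out after it was seen and not called by limma after adjustment.

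Cell type markers, from lists that were compiled with earlier results of these data known, gave no call by limma in any comparison. Of the 9 macrophage genes, 3 were higher and 6 lower in the combination than in vehicle (median -0.39), with Mrc1, a scavenger receptor, at 0.07 and Csf1r at -0.48. The summed level of the list was 11.09 to 12.32 under MYCi975, 11.50 to 12.21 under TMP195, 11.16 to 11.50 under the combination and 11.30 to 11.93 under vehicle. The 4 monocyte genes were all lower in the combination than in vehicle (median -0.68), with Ccr2, a chemokine receptor, at -0.69 and Chil3 at -0.61. Their summed level was 9.62 to 9.80 in the combination and 10.02 to 10.62 in vehicle. The epithelial sum did not overlap vehicle either, on the higher side (9.66 to 9.89 against 9.2 to 9.64). Of all tested genes, 3.27% lay wholly below vehicle in the combination, and no such share was computed for list sums. With the mean of the macrophage genes as a covariate, a fit added after seeing the data, the members' mean difference between combination and vehicle was -0.50.

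Dendritic cell and B cell markers were read in the same way. Of the 5 dendritic cell genes tested, 2 were higher and 3 lower (median -0.09), with Itgax at -0.09 and Xcr1, a receptor of cross-presenting dendritic cells, at -0.14. Their list summed to 8.68 to 8.79 under the combination and 8.59 to 9.0 under vehicle. B cell markers were close to the floor: Blk, a B cell kinase, was at it in 7 of 14 libraries, Cd79a reached 4.96 and Ms4a1 4.97. Pax5 (5.76 to 6.44), the B cell regulator, was the 1 tested gene of that list, at 0.14.

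The 8 T cell genes were all lower in the combination than in vehicle (median -0.41; Cd3e -0.43, Cd3g -0.47), as were all 5 tested neutrophil genes (-0.34; S100a9 -0.40, S100a8 -0.34), all 5 tested endothelial genes (-0.22; Pecam1 -0.22, Cdh5 -0.19) and both tested muscle genes (-1.20; Myh4 -1.40, Acta1 -0.99). All 6 fibroblast genes were higher (0.45; Col3a1 0.48, Dcn 0.42), and of the 3 tested epithelial genes 2 were higher (0.24; Krt18 0.49, Krt8 0.24). None of these differences passed the adjusted threshold, and their part in the class II differences was not tested. The 2 covariates were measured in the same libraries as the members and cannot give that part.

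The rest of the pathway was counted from lists of 40 further genes, and no tested one passed limma's adjusted threshold in any comparison. Of the 9 endolysosomal processing genes, 3 were higher and 6 lower in the combination than in vehicle (median -0.31), with Ctsh, a cathepsin, at -0.57 and Cst3, the cysteine protease inhibitor cystatin C, at -0.52. Ctss was at -0.70, with means of 10.76 ± 0.46 in the combination and 11.45 ± 0.38 in vehicle, and Ifi30, the thiol reductase that unfolds antigens for class II, was at -0.47. Under TMP195 8 of the 9 were higher than in vehicle (median 0.19), and under MYCi975 6 were (median 0.045).

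All 12 inducers and repressors of Ciita were lower in the combination than in vehicle (median -0.29), whereas 9 of 12 were higher both under MYCi975 (median 0.07) and under TMP195 (median 0.13), 3 comparisons that share the vehicle libraries. Ifng read 5.70, 5.89, 4.50 and 5.27 with MYCi975, 4.99, 4.84 and 5.90 with TMP195, 4.48, 5.19 and 4.43 with the combination, and 5.80, 4.83, 5.76 and 5.57 with vehicle. Combination replicates 1 and 3 were below every vehicle library, and the difference was -0.79 (95% interval -1.52 to -0.06; limma adjusted p = 0.992). With a mean of 5.23, Ifng lay close to the floor of 4.047, where differences are compressed. Irf8, a factor of myeloid antigen-presenting cells, was at -0.51, Spi1, the myeloid factor PU.1, at -0.50, and Irf1 at -0.48.

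Of 7 promoter factors, which hold Ciita on DNA, 5 were higher and 2 lower in the combination than in vehicle (median 0.03), with Nfya, a Y box factor, at 0.28 and Rfx5, an X box factor, at 0.23. Of the 3 turnover genes, 1 was higher and 2 lower: Marchf1, the ubiquitin ligase that removes class II from the surface, was at -0.57, Cd83, which opposes it, at -0.07, and Marchf8, a related ligase, at 0.17. The 3 costimulator genes were lower in the combination (Cd80 -0.24, Cd86 -0.21, Cd40 -0.16) and higher in both single-agent groups. Cd4, the coreceptor that binds class II, was the 1 tested T cell ligand gene, at -0.16. The other class II region genes lay near the floor and were not tested: H2-Oa and H2-Ob, the chains of the H2-DO inhibitor of the editor, ranged from 4.05 to 4.62 and from 4.05 to 5.34.

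Among the 10 genes most like the mean of H2-Aa, H2-Ab1, H2-Eb1 and Cd74 over the 14 libraries, out of 13704 tested genes that are no members, were Cxcl9, Gbp2, Gbp6, Gbp7, Cxcl16, B2m, Gbp3, Naip2 and Gpr141, with r from 0.98 to 0.96. Cxcl9 is a chemokine induced by interferon gamma, the Gbp genes encode interferon-induced GTPases, and B2m is the light chain of MHC class I. B2m read 12.10, 12.51, 11.69 and 11.91 with MYCi975, 12.04, 12.09 and 12.66 with TMP195, 11.12, 11.75 and 11.87 with the combination, and 12.29, 11.69, 12.24 and 11.80 with vehicle, again lowest in combination replicate 1 and highest in TMP195 replicate 3. The Gbp genes have near-identical copies and are uncertain as single genes. The lowest r belonged to Tiam2 (-0.89), Lrig1, Gstz1, Creb3l2 and Gpr149 (-0.86). Of all these genes, 62 had r of at least 0.9. Of the 10 genes, 7 were also among the top 10 on group-centred values and 5 without MYCi975 replicate 2.

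The members also differed from each other within a library. Such a difference removes only a shift of equal size in both genes: H2-Ab1 minus H2-DMb2 still ran from 2.39 in combination replicate 1 to 5.65 in TMP195 replicate 3. H2-Aa minus H2-Ab1 was -0.81, -0.94, -0.71 and -0.85 with MYCi975, -0.87, -0.91 and -0.81 with TMP195, -0.23, -0.47 and -0.51 with the combination, and -0.76, -0.82, -0.92 and -0.98 with vehicle. The 3 combination libraries lay above all 11 others, the only 1 of 28 member pairs that set the combination apart from all 11. Over 13710 other tested genes, H2-Ab1 minus the gene put the combination below all 11 for 15 genes (0.109%), H2-Aa among them. H2-Aa minus the gene put it above all 11 for 1 gene (0.00729%), which is H2-Ab1. The pair was picked out after its values were seen, so no test is given. MYCi975 replicate 3, whose H2-Ab1 of 7.84 was below that of combination replicates 2 and 3, had a difference of -0.71. Combination replicate 1, with the lowest H2-Ab1 at 7.01, had the difference of -0.23. Whether the difference depends on the expression level was not tested.

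**Figure D5:**
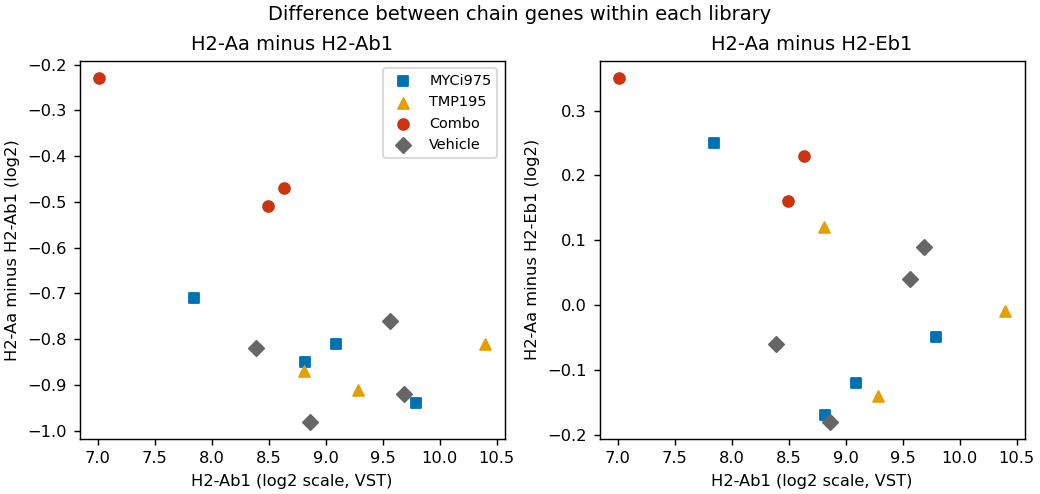
H2-Aa minus H2-Ab1 (left) and H2-Aa minus H2-Eb1 (right) within each library (y axes, log2 units) against the level of H2-Ab1 (x axes, log2 scale); each point is 1 of 14 libraries, with colour and shape for the group. H2-Aa minus H2-Ab1 is -0.51 to -0.23 in the combination and -0.98 to -0.71 in the 11 other libraries, while H2-Aa minus H2-Eb1 in MYCi975 replicate 3 lies among the combination libraries.

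In the genome the members sit in 3 places. On GRCm38, 6 of them lie on chromosome 17 between 34119541 and 34316674, a span of 197 kb that also holds H2-Ob. Ciita lies on chromosome 16 and Cd74 on chromosome 18. The members that varied most closely together, H2-Aa, H2-Ab1, H2-Eb1 and Cd74, are thus not all neighbours, and H2-DMb2 lies between H2-DMa and H2-DMb1.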

How the data were processed

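RNA of LLC1 tumours was measured in 14 libraries made with a stranded total RNA kit, per the labels' protocols. The authors deposited a single table of variance-stabilised log2 values, as its name and header show. Salmon (no version) and hg38, a human build, are named in the submitters' processing notes, whereas the IDs are mouse Ensembl IDs, so the build is not settled and no coordinates were taken from the table. Depth is unknown, so count models were not applied. Of 21152 IDs, 20264 (95.8%) matched a mouse symbol.

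limma 3.58.1 (R 4.3.3) estimated 1 mean for each group from the 14 libraries together, with moderated variances that followed expression level, and gave two-sided tests for 6 comparisons, with Benjamini-Hochberg adjustment over 13711 genes at a threshold of 0.05. The interaction was combination minus TMP195 minus MYCi975 plus vehicle. The fit was tested on simulated data. Summed levels of a list are log2 of the sum of its members' values taken back from log2. The floor is part of each value, so sums of genes near it are compressed. Promoters came from RefSeq (GRCm38.p6), and gene positions and transcripts from the GENCODE annotation of GRCm38. Named genes were the members, the central genes of the pathway, the gene of smallest p in each pathway list against vehicle, the 2 genes of each marker list with the highest mean deposited value, a convenience ranking on a scale that is not per length, and the 10 genes most and 5 least like the chains. Members and lists were chosen with earlier results of these data known. Alternatives were other filters, moderation, normalisations, library weights, subsets of groups, a Ptprc or macrophage covariate, the replicate number as a term, and leaving out each library. Cd79b, Cd209a and H2-Ea are not analysed here. A few single-gene values are not reported here.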

Additional observations from a re-analysis of the deposited data

Results flagged for a closer look

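In groups of 4, 44 pairs of gene and group were examined for a library far from the other 3, and 2 had one; chance gives about 1 in 20. Ifi30, the antigen-unfolding thiol reductase, was at 9.03 in MYCi975 replicate 2, where the next MYCi975 library was at 8.15 and the lowest at 8.0, so the gap was 0.859 of the range. Cd83, which stabilises class II at the cell surface, was at 7.33 in the same library, with the next at 6.18 and the lowest at 6.03 (0.883 of the range). Ptprc was also highest in that library, at 12.07. None of the 8 members had such a library in MYCi975 or vehicle.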

How the results depend on the processing

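No gene passed the adjusted threshold in any of 26 settings per comparison (25 for the interaction). Replicate numbers did not pair the libraries: the 19 same-number pairs had r from -0.302 to 0.215, 6 over 0.1. With the replicate block, the mean member difference was -0.85 for the combination against vehicle, and nothing was called. With Ptprc as a covariate, some mean differences moved by more than 0.544, the pooled SD of the member mean over libraries within groups. They became 0.12 for the combination against MYCi975, -0.30 for the combination against TMP195 and 0.13 for the interaction. That SD describes single libraries and is no error of these differences, and the cause was not tested. Signs turned as follows, and the causes were not tested. With Ptprc, the combination against MYCi975 gave 0.45 for H2-Aa, 0.0762 for H2-Ab1, 0.22 for H2-Eb1, 0.14 for Cd74 and 0.48 for Ciita (0.0512 with the macrophage covariate, chosen after seeing the data), the combination against TMP195 gave 0.018 for Ciita, and the interaction gave 0.33 for H2-Aa, 0.13 for H2-Eb1 and 0.75 for Ciita (0.21 with macrophages, 0.17 with library weights). H2-DMb1 under TMP195 was -0.12 with weights, -0.11 with Ptprc, -0.0512 with macrophages and -0.0044 when added to H2-DMb2, which gave 0.0277 under MYCi975. The r of H2-Ab1 with Cd79a was 0.10 on group-centred values.

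Leaving out each library turned signs in these ranges. For MYCi975 against vehicle, Cd74 ran from -0.41 to 0.15, H2-Aa from -0.46 to 0.11, H2-Ab1 from -0.54 to 0.11, H2-Eb1 from -0.47 to 0.20 (all without MYCi975 replicates 2 and 3) and H2-DMb1 from -0.29 to 0.10 (vehicle replicates 2 and 3). For TMP195 against vehicle, without TMP195 replicate 3 and without replicate 1, Cd74 ran from -0.0031 to 0.73, H2-Aa from -0.10 to 0.72, H2-Ab1 from -0.0807 to 0.71, H2-Eb1 from -0.12 to 0.77, Ciita from -0.43 to 0.26, H2-DMa from -0.29 to 0.11 and H2-DMb1 from -0.29 to 0.26. For the combination against MYCi975, Ciita ran from -0.38 to 0.12 and H2-Aa from -0.73 to 0.0093, both high without combination replicate 1, and the interaction of Ciita from -0.46 to 0.24. The mean difference of the combination from vehicle ran from -1.07 to -0.42, that of the combination from MYCi975 from -0.85 to -0.21, that of the combination from TMP195 from -1.32 to -0.62, and that of the interaction from -1.10 to -0.41. Depth is unknown, and H2-DMb2 lies near the floor, where differences are compressed.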

Other observations

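Of the 28 differences between members within a library, 4 put the 3 combination libraries outside the 4 vehicle libraries: H2-Aa minus H2-Ab1, H2-Aa minus H2-Eb1, H2-Ab1 minus H2-Eb1 and H2-DMa minus H2-DMb2. Over 13710 other tested genes, H2-Ab1 minus the gene put the combination wholly below vehicle for 9.53% and wholly above for 0. H2-Aa minus the gene put it below for 0.554% and above for 0.0219%. The 4 pairs were picked out after their values were seen and were not tested.

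Among the pathway genes, likeness to the chain genes and Cd74 over the 14 libraries varied. Ctss ranked at position 38 among 13704 genes (r = 0.92), Marchf1 at 104 (0.88) and Ifng at 212 (0.83), while Ctsl (-0.15), Marchf8 (-0.39) and Rfx5 (-0.44) had negative r at positions 8295, 11284 and 11783. These are descriptions with no test.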
